A study of Medicago sativa with 15 samples.

Results

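This account describes 266 genes of the alfalfa root whose transcripts were lower in every stressed library than in every control library. They were chosen by their read counts in all 15 libraries. Counts were scaled to counts per 1e6 counts in the library (CPM). A gene was taken when its highest CPM + 1 in the 12 stressed libraries was at least 4-fold below its lowest CPM + 1 in the 3 controls, and when the stressed libraries held more than 5 counts of it in all. The 266 were found among 164632 genes in the count table, of which 108456 had a count. To pass, a gene needs at least 3 CPM in each control, a level that 25326 genes reached, so the members were 1.05% of the genes that could have qualified. Since these values chose the members, the contrast of stressed with control roots is given as a description, without a test.

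The roots came from seedlings of Medicago sativa, a perennial forage legume whose cultivated form carries several copies of each chromosome and outcrosses. The groups, each of 3 libraries, were roots held for 4, 8, 12 or 24 h in 50 mmol/L NaHCO3 and control roots kept without it. No group had sodium without bicarbonate, and no label gives the control roots a time. The source material is labelled roots of seedlings, and no label states that replicates were separate plants, so p-values measure the spread between libraries, which may be technical. In these bulk samples, fewer cells of a type and less RNA per cell cannot be told apart.

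Sodium bicarbonate brings sodium, bicarbonate and a high pH to the root at once. At high pH, iron, phosphate and other minerals become less soluble, proton-driven uptake is hampered, and root elongation usually slows. Transcripts that are abundant in a growing root commonly serve cell wall loosening, transport, defence and, in legumes, the flavonoid and symbiosis pathways. Which of these the members serve is not given here: the IDs carry no names in the files, and the RefSeq gene table of the Bolivia_mono assembly matched 0 of 164632. For this reason 4 IDs are printed, the labelled tissue was not checked by marker genes, no gene list could be counted, and no sequence is shown. The counting of reads among near-identical gene copies is not given in the sources used here, so the split among copies is uncertain for every member.

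The libraries held between 6863315 and 15180708 counts. Every stress time had 1 library with values mostly between those of its 2 companions: replicate 2 at 4 h, replicate 3 at 8 h, and replicate 1 at both 12 h and 24 h. Among genes with at least 300 counts in their group, these 4 intermediate libraries lay between the others at 72.1% to 79.3% of genes, against 9.81% to 38.8% for the other 11 libraries. They also had the 4 lowest totals, 0.518 to 0.540 of the mean of the other 2. Whether they are independent of those 2 was not tested. If they are not, SDs and p-values that count all 3 libraries of a group may be too small. Values below count all 3 libraries of a group unless the intermediate ones are said to be left out. Leaving them out of the rule gave 274 genes that include all 266. Fewer stressed libraries can only loosen the fold limit, so this inclusion does not test whether the set depends on them.

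Depth of the loss. As a group the members took a clear share of the control transcriptome and almost none of the stressed one. Their summed level was 658 to 1333 CPM in the 3 libraries at 4 h, between 609 and 751 at 8 h, between 812 and 1030 at 12 h, and 643 to 1160 at 24 h, against 20111 to 27030 CPM in the 3 controls. No stressed library came near a control, as the rule requires of each member: the lowest control sum was 15.1 times the highest stressed sum. In terms of the library, 0.0609% to 0.133% of the counts of a stressed library and 2.01% to 2.70% of those of a control belonged to members. The mean sum was 1003 ± 338 CPM after 4 h of stress, then 682 ± 71.4 by 8 h, 922 ± 109 by 12 h and 887 ± 259 by 24 h, against 23758 ± 3475 CPM in control roots (SD, n = 3 each). This left 4.22%, 2.87%, 3.88% and 3.73% of the control sum at 4, 8, 12 and 24 h.

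**Figure D1:**
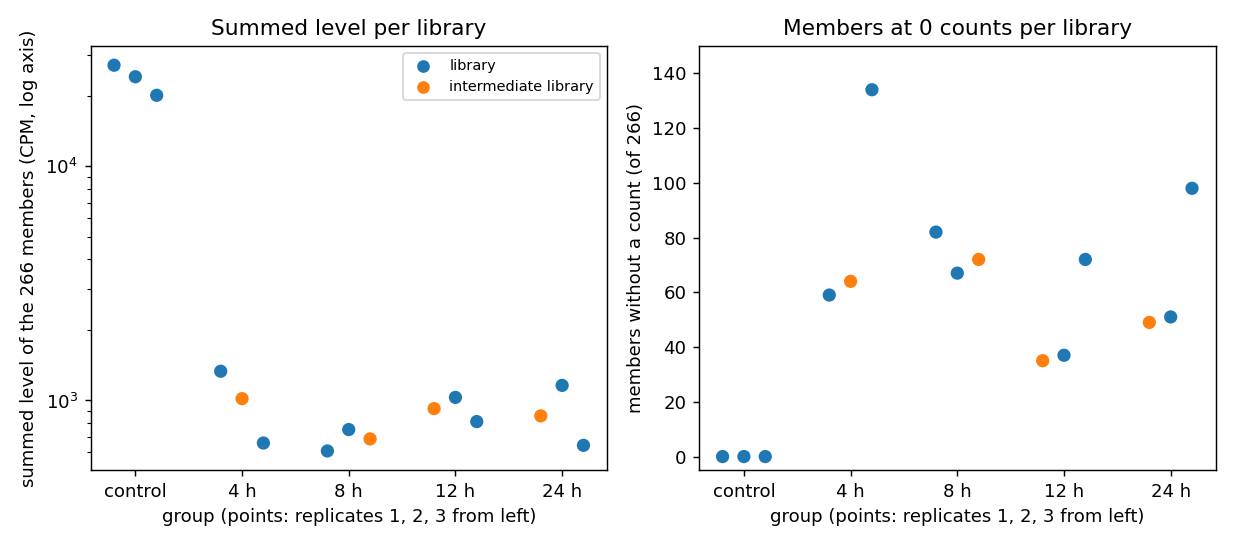
Summed level of the 266 members in CPM on a log axis (left) and the number of members without a count (right) in each library, by group, with 1 point per replicate and the 4 intermediate libraries in orange. All 12 stressed libraries sit between 609 and 1333 CPM, below the controls at 20111 to 27030 CPM, and 4 h replicate 3 has the most members at 0 counts, 134.

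Member by member, the median level left, as a percentage of the gene's control mean, was 2.52% after 4 h, then 1.41% after 8 h, 2.46% after 12 h and finally 2.10% after 24 h. The lower and upper quartiles were 0.499% and 5.18% at 4 h, 0.237% and 4.00% at 8 h, 1.17% and 4.79% at 12 h, and 0.629% and 4.35% at 24 h. The highest single values were 13.7%, 18.7%, 17.1% and 15.3% in the same order. Over the 67719 genes tested that had a control count, the median level left was 82.3%, 88.8%, 99.5% and 88.8%. Without 4 h replicate 1 the median of the members at 4 h was 1.47%. Without the intermediate library of each time the medians were 2.46%, 1.50%, 2.59% and 2.16%.

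The members differed widely in depth. Averaged over the 12 stressed libraries, 58 members kept under 1% of their control level and 55 kept at least 5%, within a whole range of 0.0658% to 13.0%. At all 4 times 15 members stayed under 1%, 145 stayed under 5% and 16 stayed at or above 5%. Only 37 reached 10% at any time. The 67 members with the highest control CPM, 103 CPM or more, kept a median of 3.63%, and the 67 with the lowest, at most 26.8 CPM, kept 1.79%. The pseudocount of 1 in the rule asks for a deeper loss from genes of low level, so this order is partly set by the choice of members.

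**Figure D2:**
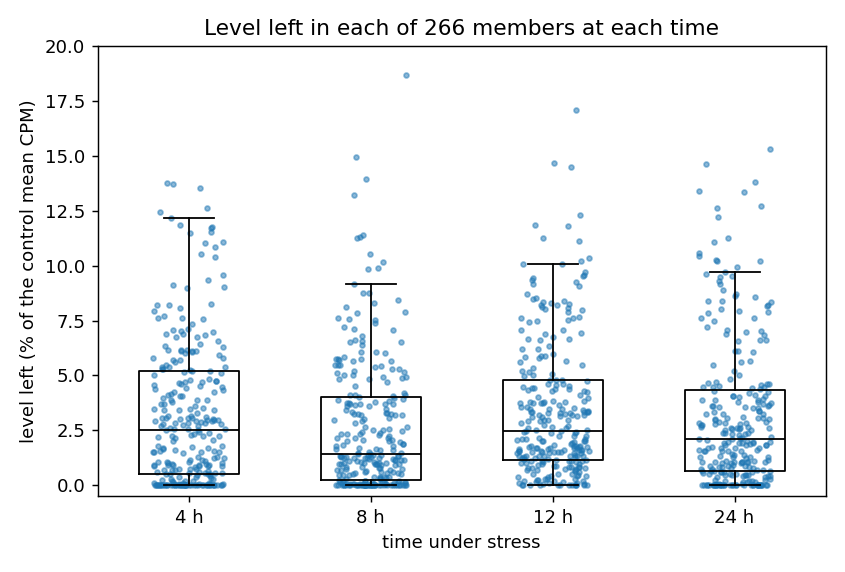
Level left in each of the 266 members at 4, 8, 12 and 24 h, as a percentage of its control mean CPM, with 1 point per gene, the box at the quartiles, the line at the median and whiskers at 1.5 times the box height or the last point within it. The medians lie between 1.41% at 8 h and 2.52% at 4 h, and no member exceeds 18.7%.

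Complete loss of counts was common in single libraries and rare throughout. Between 35 and 134 members had no count in a given stressed library, and 0 members lacked a count in any control. After 4, 8, 12 and 24 h in turn, 44, 43, 13 and 35 members had no count in any of the 3 libraries. Of the 67719 genes tested that had a control count, 4945, 2139, 1345 and 2427 had none, in the same order. Of the 25326 genes that could have qualified, 341, 185, 86 and 193 had none. The minimum at 12 h was thus not particular to the members. Of the 266, 175 had a count at every time, 54 lacked one at 1 time, 30 at 2 times and 7 at 3 times. A count of 0 allows up to 3 counts, or 0.198 to 0.437 CPM in a single stressed library, for counting error alone. Of the 44 members without a count at 4 h, 15 also had none at 8 h, 4 none at 12 h and 12 none at 24 h. Their median level left was 0.659% at 8 h, 1.52% at 12 h and 1.27% at 24 h, so most of them had some count at each later time. A count in all 3 libraries was found in 9 of the 44 at 8 h, 15 at 12 h and 12 at 24 h. At so few counts, a return from absence cannot be told from a trace missed at 4 h. These 44 were picked for their value at 4 h, and their control means ran from 5.97 to 72.4 CPM.

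**Figure D3:**
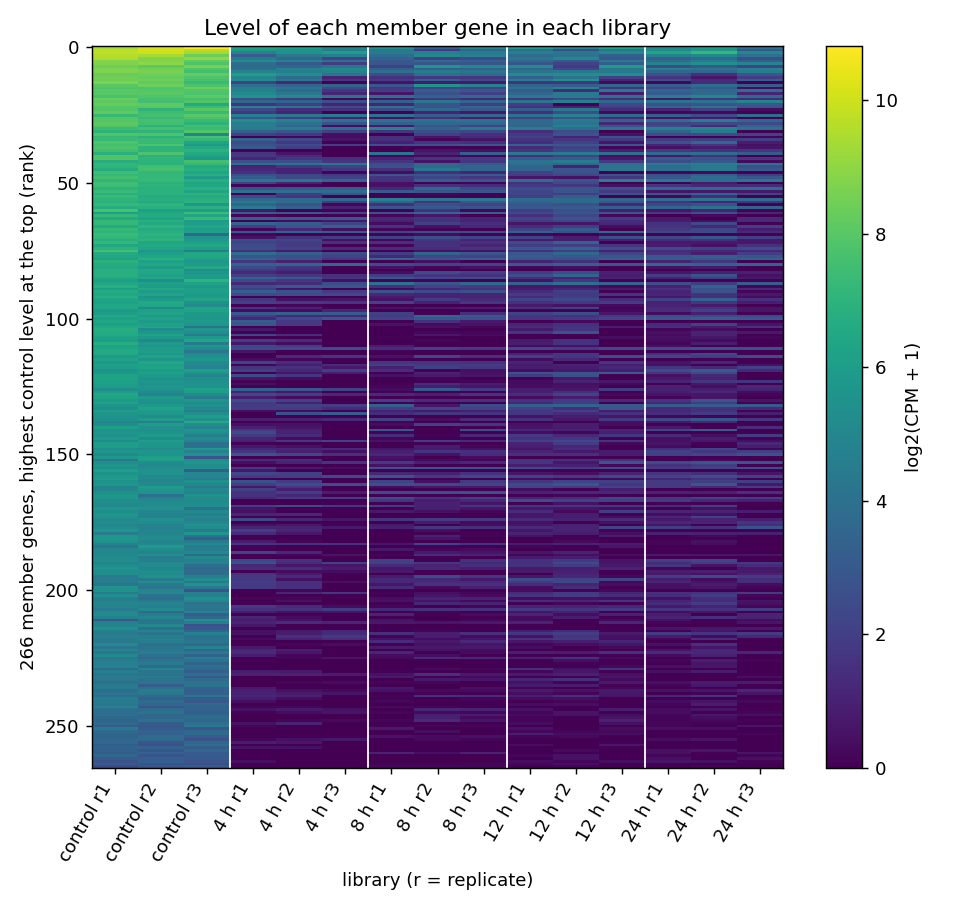
Level of each member in each library as log2(CPM + 1), genes in rows with the highest control mean at the top and libraries in columns, in the order control, 4, 8, 12 and 24 h. The 3 control columns are bright over their whole height, and the 12 stressed columns are dark except among the most abundant members, with 4 h replicate 3 the darkest at 4 h.

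The most abundant members. In FPKM (counts scaled by gene length and library total) and in CPM alike, the highest control levels among the members belonged to MS.gene41741 and MS.gene067820. Both have a coding length of 213 nt, and their relation as possible copies was not tested. In control replicates 1, 2 and 3, MS.gene41741 had 687, 1112 and 1797 CPM. Under stress it had 79.3, 64.0 and 29.4 CPM at 4 h, 43.0, 9.55 and 31.0 at 8 h, 57.0, 32.1 and 68.5 at 12 h, and 40.5, 51.7 and 16.3 at 24 h. The control level thus varied by more than 2-fold between replicates. That every stressed library lay far below the lowest control is required by the rule. Per length its level was 270 ± 120 FPKM after 4 h, 131 ± 79.5 after 8 h, 247 ± 87.5 after 12 h and 170 ± 84.9 after 24 h, against 5628 ± 2630 FPKM in control roots (SD, n = 3 each). At 4, 8, 12 and 24 h its mean lay 20.8-fold, 43.1-fold, 22.8-fold and 33.1-fold below control.

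The controls of MS.gene067820 were closer together, at 858, 1108 and 834 CPM. It had 55.1, 47.3 and 23.0 CPM at 4 h, 18.6, 2.57 and 10.5 at 8 h, 13.7, 4.70 and 18.8 at 12 h, and 33.7, 54.1 and 6.89 at 24 h. The means lay 22.3-fold, 88.5-fold, 75.2-fold and 29.6-fold below control at 4, 8, 12 and 24 h, so the loss was deepest in the middle of the course. All 3 libraries at 8 h lay below all 3 at 4 h, while those of 12 h and 8 h, and of 24 h and 12 h, overlapped. The difference between 8 h and 4 h missed the threshold (log2 fold change -1.95 ± 0.75 SE, edgeR adjusted p = 0.1). For MS.gene41741 the same difference was -1.01 ± 0.60 (edgeR adjusted p = 0.277). Between 24 h and 4 h the log2 fold change was -0.34 ± 0.72 for MS.gene067820 and -0.61 ± 0.59 for MS.gene41741 (edgeR adjusted p 0.791 and 0.513), and without 24 h replicate 3 that of MS.gene067820 was 0.21. The other 8 of the 10 members with the highest control CPM had control means of 329 to 846 CPM and coding lengths of 504 to 4314 nt. They kept 2.05% to 7.95% of these at 4 h, 1.00% to 8.42% at 8 h, 1.57% to 9.24% at 12 h and 1.55% to 10.4% at 24 h.

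**Figure D4:**
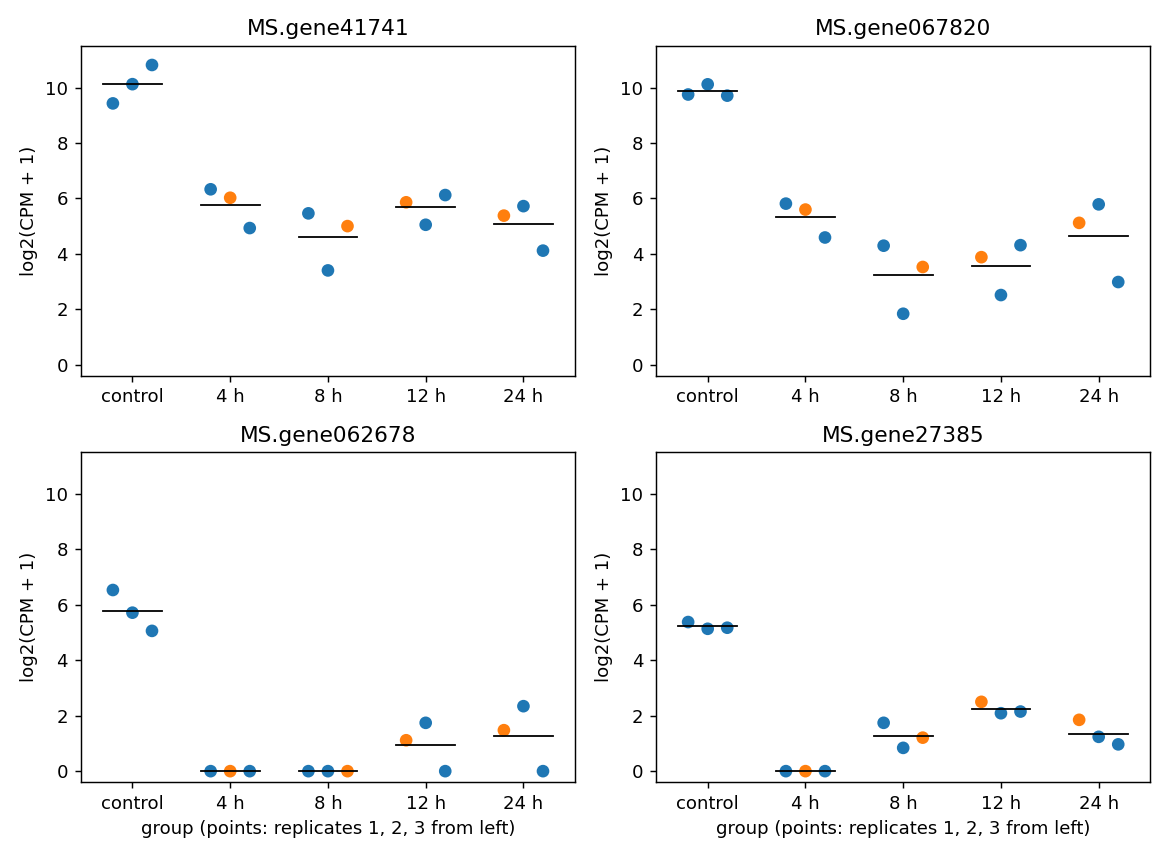
Level of the 4 printed genes in each library as log2(CPM + 1), by group, with 1 point per replicate, the 4 intermediate libraries in orange and a line at the mean of the 3 libraries. MS.gene41741 and MS.gene067820 stay detectable at every time, while MS.gene27385 is at 0 in all 3 libraries at 4 h and MS.gene062678 in all 6 libraries at 4 and 8 h.

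Shape of the loss over time. The rule asks for a loss at every time and is the same for all 4 times, so the order of the times among stressed libraries was compared next. On the scale of the mean log2(CPM + 1), 134 members (50.4%) stayed within a 2-fold range over the 4 times, against 33.9% of the 68605 genes tested. With a pseudocount of 0.1 in place of 1 only 34 did, since most members are near 0 under stress and the pseudocount of 1 flattens such values. The lowest level fell at 8 h in 78 members, at 4 h in 59, at 24 h in 59 and at 12 h in 33, and 37 had tied lowest times. This is 29.3%, 22.2%, 22.2% and 12.4% of the members, against 20.9%, 33.1%, 23.4% and 19.3% of all genes tested. The highest level fell at 24 h in 76 members, at 4 h in 75, at 12 h in 75 and at 8 h in 40. Without the intermediate libraries the lowest level fell at 8 h in 71 members, at 4 h in 65, at 24 h in 61 and at 12 h in 32. Without 4 h replicate 1 the order of the first 2 turned, with 66 members lowest at 8 h and 74 at 4 h.

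**Figure D5:**
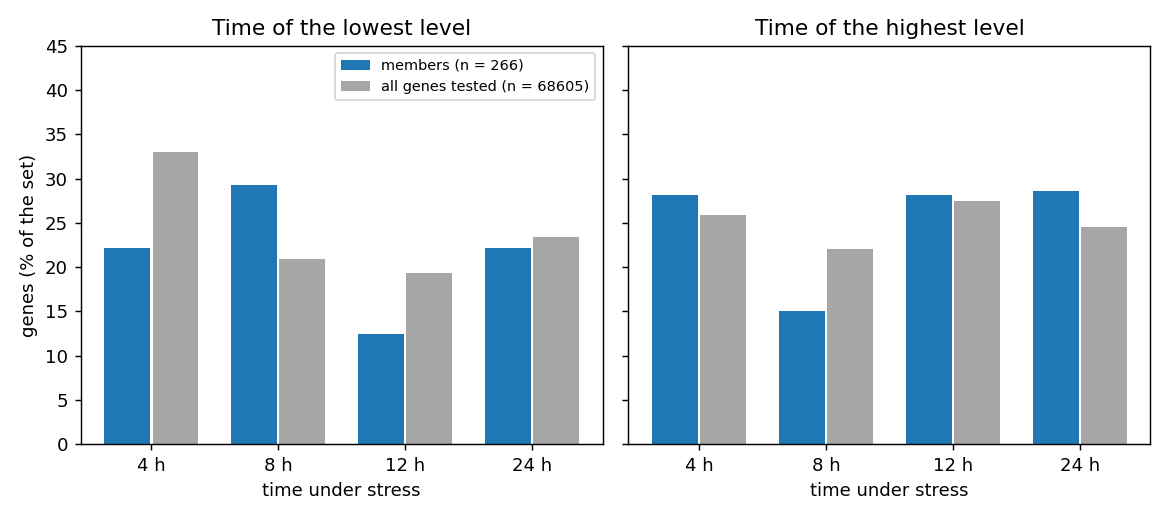
Share of genes, in percent of the set, whose lowest (left) or highest (right) mean log2(CPM + 1) among the stressed groups fell at 4, 8, 12 or 24 h, for the 266 members in blue and the 68605 genes tested in grey. The members have their lowest level at 8 h in 29.3% and at 12 h in 12.4%, against 20.9% and 19.3% of all genes tested; genes with tied times are not drawn.

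The level fell at each step from 4 to 24 h in 10 members (3.76%, against 4.80% of all genes tested) and rose at each step in 19 (7.14%, against 6.14%), shares near those of the whole table. A fall from 4 to 8 h followed by a rise to 12 h was seen in 116 members (43.6%, against 30.2% of all genes tested), and in 76 of these the level fell again by 24 h (28.6%, against 20.3%). Without 4 h replicate 1 the fall and rise was seen in 99 members (37.2%, against 29.2%). The fall to 8 h rests in part on that library: the fitted log2 change of 8 h over 4 h was negative in 150 members, with a median of -0.37, but without 4 h replicate 1 it was negative in 113 and positive in 132, with a median of 0. At least a 2-fold difference on this scale separated 24 h from 4 h in 29 members that were higher at 24 h (10.9%, against 18.7% of all genes tested) and 34 that were lower (12.8%, against 15.2%). These are counts of directions without a test.

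The differences between times were then tested in a fit over all genes. Any difference among the 4 times was called in 74 members, or 27.8% (edgeR quasi-likelihood test, adjusted p under 0.05), where 21.9% of all genes were called. This order of the shares turned in other fits. With limma-voom 10.9% of the members and 19.0% of all genes were called, on log2(FPKM + 1) 13.5% and 25.1%, and on the 12 stressed libraries alone 9.33% of 193 members and 18.8% of all genes. No excess of calls among the members is therefore read from the 27.8%. Dropping 1 intermediate library at a time gave 38 calls for 4 h replicate 2, 41 for 8 h replicate 3, and 37 each for 12 h and 24 h replicate 1. In this order these were 14.3%, 15.4%, 13.9% and 13.9% of the members, against 8.69%, 10.5%, 10.4% and 9.84% of all genes. Without all 4 intermediate libraries, edgeR and limma-voom called 0 of all 71665 genes tested, so the 0 is not about the members. An unadjusted edgeR p under 0.05 was then found for 55 members (20.7%, against 10.6% of all genes), and DESeq2 called 29 (10.9%, against 5.82%). The limma-voom shares at an unadjusted p under 0.05 lay the other way, at 7.14% of the members against 12.5% of all genes. No excess among the members is read from these shares. Stressed counts limit this test: a member had a median of 147.5 counts over the 12 stressed libraries, and 67 members had under 50. A filter on the stressed libraries alone kept 193, and the other 73 entered the fit only through their control counts. Of the 74 calls, 58 were among the 193 and 16 among the 73. The calls between pairs of times given below also include members of both kinds. For 24 h against 4 h they were 43 and 7, and for 8 h against 4 h 24 and 7. For 12 h against 8 h they were 2 and 2, and for 24 h against 12 h 11 and 1.

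Between 24 h and 4 h, 25 members rose and 25 fell, each 9.40% of the 266, where 9.41% of all genes rose and 5.98% fell (edgeR adjusted p under 0.05). With 1 library left out, the split stayed even in some fits and shifted in others. Without 12 h replicate 3 it was 28 of each, where 6354 of all genes rose and 4948 fell. Dropping 4 h replicate 1 left 17 rising and 9 falling members, 4 h replicate 2 left 9 rising and 7 falling, and 4 h replicate 3 left 15 rising and 30 falling. Over all genes these fits gave 3967 rising and 3024 falling, 1821 and 1570, and 4169 and 3365. Dropping 24 h replicate 1 left 13 rising and 4 falling members, 24 h replicate 2 left 14 of each, and 24 h replicate 3 left 30 rising and 10 falling. Over all genes these fits gave 2622 rising and 1029 falling, 3916 and 1838, and 4997 and 1940. The 25 that rose had a median level left of 3.86% at 24 h, at most 10.3%, and were nearly empty at 4 h, where 16 of them had no count in any library. The 25 that fell had a median level left of 0.498% at 24 h and 5.39% at 4 h, and 9 of them had no count at 24 h. In 18 of the 25 that fell, 4 h replicate 1 was the highest of the 12 stressed libraries, as it was in 67 of all 266 members. The 50 calls became 26, 16, 17 and 28 when 4 h replicates 1 and 2 and then 24 h replicates 1 and 2 were dropped in turn. In this order these were 9.77%, 6.02%, 6.39% and 10.5% of the members, against 9.49%, 4.60%, 4.95% and 7.79% of all genes. The main fit gave 18.8% and 15.4%, so the drop was not particular to the members. On the 11 libraries without the intermediate ones edgeR and limma-voom called 0 of all genes. An unadjusted edgeR p under 0.05 was found there for 57 members (21.4%, against 12.9% of all genes), and DESeq2 called 22 (8.27%, against 6.09%). An unadjusted limma-voom p under 0.05 was found for 9.77% of the members against 14.2% of all genes, the other way round.

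From 4 to 8 h the change was called in 31 members. At 8 h 16 rose (6.02%) and 15 fell (5.64%) relative to 4 h, where 6.75% and 3.75% of all genes did (edgeR adjusted p under 0.05). Of the 16 that rose, 9 had no count at 4 h, and of the 15 that fell, 6 had none at 8 h. Of these, 9 that rose and 6 that fell were called in the same direction between 24 h and 4 h, and 0 in the opposite one; both comparisons share the 4 h libraries. In place of 31, the fit called 13 when 4 h replicate 1 was dropped, 5 for 4 h replicate 2, 10 for 8 h replicate 2, 3 for 8 h replicate 3 and 19 for 12 h replicate 1. In this order these were 4.89%, 1.88%, 3.76%, 1.13% and 7.14% of the members, against 5.89%, 2.16%, 5.85%, 2.82% and 6.11% of all genes. The main fit gave 11.7% and 10.5%. The split moved too. Dropping 4 h replicate 1 left 7 rising and 6 falling members, 4 h replicate 2 left 3 rising and 2 falling, and 4 h replicate 3 left 8 rising and 26 falling. Over all genes these fits gave 2754 rising and 1585 falling, 915 and 679, and 3001 and 2058. For 8 h replicate 1 it was 17 rising and 4 falling members, for 8 h replicate 2 it was 8 rising and 2 falling, and for 8 h replicate 3 it was 3 rising and 0 falling. Over all genes it was 4054 and 1123, 3415 and 901, and 1690 and 391. For 12 h replicate 1 it was 7 rising and 12 falling members, for 12 h replicate 3 it was 16 rising and 23 falling, and for 24 h replicate 1 it was 9 rising and 12 falling. Over all genes it was 3011 and 1502, 4879 and 2941, and 3003 and 1488. Without the 4 intermediate libraries edgeR and limma-voom called 0 of all genes. An unadjusted edgeR p under 0.05 was found there for 50 members (18.8%, against 10.7% of all genes), and DESeq2 called 6 (2.26%, against 4.16%). By limma-voom the unadjusted shares were 4.14% of the members and 11.6% of all genes.

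At the later steps few members were called, but the number moving at least 2-fold on log2(CPM + 1) was similar at each step. From 4 to 8 h 12 rose and 33 fell so far, from 8 to 12 h 38 and 8, and from 12 to 24 h 16 and 31. Over all 68605 genes tested it was 11341 and 9362, 9311 and 7232, and 7972 and 9621. From 8 to 12 h 3 members rose (1.13%) and 1 fell (0.376%), where 0.972% and 0.851% of all genes did (edgeR adjusted p under 0.05). The fitted log2 change was positive in 173 members and negative in 90, with a median of 0.56, against 0.06 over all genes tested. Without 12 h replicate 2 it was positive in 157 and negative in 98, with a median of 0.30. The 4 calls were 0 without any 1 of the 8 h libraries or without 12 h replicate 1, 1 without 12 h replicate 2 or 24 h replicate 1, 2 without 4 h replicate 2, 7 without 12 h replicate 3, and 8 and 14 without 4 h replicates 1 and 3. Of all genes, 0.615%, 0.473% and 0.0718% were called without 8 h replicates 1, 2 and 3, against 1.82% in the main fit. Without 12 h replicates 1, 2 and 3 it was 0.0961%, 0.612% and 1.41%. It was 0.510% without 24 h replicate 1, and 2.45%, 0.611% and 2.92% without 4 h replicates 1, 2 and 3. From 12 to 24 h 3 members rose (1.13%) and 9 fell (3.38%), where 1.16% and 1.64% of all genes did. The 12 calls were 0, 2 and 5 without 24 h replicates 1, 2 and 3, 4, 6 and 20 without 12 h replicates 1, 2 and 3, 7 and 22 without 4 h replicates 2 and 3, and 7 without 8 h replicate 3. With 1 library left out, 0 to 5 members rose and 0 to 17 fell from 12 to 24 h. Over all genes 45 to 1167 rose and 46 to 1749 fell. Without the intermediate libraries edgeR and limma-voom called 0 of all genes at both steps. An unadjusted edgeR p under 0.05 was found there for 36 members at each step (13.5%, against 5.62% of all genes from 8 to 12 h and 6.32% from 12 to 24 h). By limma-voom the unadjusted shares were 3.38% against 6.28% from 8 to 12 h and 6.39% against 7.33% from 12 to 24 h. DESeq2 called 1 member from 8 to 12 h (0.376%, against 0.996%) and 4 from 12 to 24 h (1.50%, against 1.23%).

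Members with a partial return after 4 h. The largest rises from 4 to 24 h, among 18 members that were called and had at least 1 CPM at 24 h, were those of MS.gene062678 and MS.gene27385. MS.gene27385 (coding length 2457 nt) had 40.7, 34.2 and 35.1 CPM in control replicates 1, 2 and 3, which is a narrow spread. It had no count in any library at 4 h, 2.35, 0.790 and 1.31 CPM at 8 h, 4.66, 3.26 and 3.44 CPM at 12 h, and 2.61, 1.36 and 0.955 CPM at 24 h. So all 9 later stressed libraries stood above all 3 libraries at 4 h. All remained well below the controls, which the rule requires. Against a floor of 3 counts over the 3 libraries at 4 h, its mean was at least 17.2-fold higher at 8 h, 43.9-fold at 12 h and 19.1-fold at 24 h. These bounds take the later mean as exact. Without the intermediate libraries the bound at 24 h was 10.7-fold. The difference between 24 h and 4 h passed the test (edgeR adjusted p = 0.00128), and it passed in 16 of 17 alternatives, with adjusted p from 1.69e-05 to 0.152. The exception, at 0.152, was the edgeR fit without the 4 intermediate libraries, in which 0 of all genes were called. It was the only one of the 17 that lacked all 4, so the other 16 say little about dependence on these libraries. The DESeq2 and limma-voom fits without the 4 are not among the 17, and their values for this gene are not given here.

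MS.gene062678 (coding length 1671 nt) had 91.8, 51.7 and 32.4 CPM in control roots, while all libraries of 4 and 8 h lacked a count of it. At 12 h it had 1.17, 2.35 and 0 CPM and at 24 h 1.79, 4.08 and 0 CPM in replicates 1, 2 and 3. Its return was thus seen in replicate 2 and in the intermediate replicate 1 of both times and was missing from replicate 3. The mean at 24 h, 1.96 ± 2.05 CPM (SD, n = 3), was 22.7-fold above a floor of 3 counts over the 4 h libraries. Without 24 h replicate 2 it was 10.4-fold above. These ratios take the 24 h mean as exact, so they are no lower bounds on the rise, and replicate 3 had no count at either time. The test gave an edgeR adjusted p of 0.0408. Over 17 alternatives the adjusted p ran from 0.0168 to 0.317, and 8 passed. Among those that missed it were the fits that lacked any 1 of the 4 h libraries, 12 h replicate 1, or one of 24 h replicates 1 and 2 (0.0882, 0.0979, 0.085, 0.0588, 0.0797 and 0.117).

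Libraries of one time differed in what they retained. The 2 libraries of a time that are not intermediate were set against each other on log2(CPM + 1), as a description. At 4 h, 93 members were at least 2-fold higher in replicate 1 than in replicate 3 and 17 the other way round (34.96% and 6.39%, against 23.9% and 20.5% of all genes tested). At 12 h, 74 were higher in replicate 2 and 24 in replicate 3 (27.8% and 9.02%, against 24.7% and 17.0%). At 24 h, 66 were higher in replicate 2 and 17 in replicate 3 (24.8% and 6.39%, against 14.8% and 18.2%). At 8 h the libraries were closer, with 24 higher in replicate 1 and 43 in replicate 2 (9.02% and 16.2%, against 16.8% and 18.4%). The highest of these 8 libraries was 4 h replicate 1 in 70 members, 12 h replicate 2 in 60 and 24 h replicate 2 in 50, and each of the other 5 led in at most 21. In 44 members (16.5%, against 7.81% of all genes tested) both 4 h replicate 1 and 12 h replicate 2 exceeded replicate 3 of their time by at least 2-fold. The median gap between such a pair of libraries was 0.71, 0.50, 0.67 and 0.58 on the log2 scale in the order of the times. The median range over the means of the 4 times was 0.99. These are unlike measures, since a gap is between 2 single libraries and the range is between the highest and lowest of 4 means. Their sizes therefore do not tell a time effect from the spread between libraries. The part of this spread between libraries in the order of the times was not tested.

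The controls also varied. The highest control CPM of a member was a median of 1.82 times its lowest, with a range of 1.02 to 14.1, and 19 members exceeded 4-fold. Among the 25326 genes that could have qualified the median was 1.87 and 1924 exceeded 4-fold. This spread was thus not particular to the members. Control replicate 3, which has the lowest total of the controls, was the lowest of the 3 in 161 members, replicate 2 in 73 and replicate 1 in 32. The same shares over all genes are not given here, so this order is not read as a trait of the members. Without control replicate 3 the rule would take 522 genes, against 315 and 316 without control replicates 1 and 2.

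Length and level. The rule did not use length. The members were of moderate length, with a median coding length of 987 nt (quartiles 585 and 1462 nt), against 1143 nt for the 25326 genes that could have qualified. The control level, which the rule did use, is given as a description: per length, its median over the members was 53.5 FPKM (range 2.93 to 5628), against 13.5 FPKM for those genes. Members were more frequent among abundant genes: of 1644 genes with at least 100 CPM in the controls, 71 (4.32%) were members. With a pseudocount of 1 the limit is easier to meet at a high level, so this share too depends on the rule.

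Some lengths recurred. Of the 266 members, 149 had the same coding length as another member; in the far larger set of genes that could have qualified, 97.2% share a length. The most frequent lengths were 1512 nt (10 members of the 45 genes of that length that could have qualified, 22.2%), 414 nt (9 of 53, 17.0%), 1653 nt (6 of 23, 26.1%) and 1671 nt (6 of 28, 21.4%), where 1.05% of all such genes were members. Equal length may mark alleles or duplicated copies that share reads, which was not tested, so these sets are not independent observations. They were singled out after their values were seen.

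The mean sums of sets of one length followed different courses. The 10 members of 1512 nt summed to 7.71, 3.63 and 1.31 CPM at 4 h, 1.62, 4.55 and 3.81 at 8 h, 7.87, 13.3 and 3.52 at 12 h and 16.5, 26.4 and 8.80 at 24 h, against 979, 744 and 548 CPM in the controls. Their sum left was 0.557%, 0.439%, 1.09% and 2.28% in the order of the times, so it was highest at 24 h, where the lowest library exceeded the highest at 4 h. For the 9 members of 414 nt the mean sum declined instead. They summed to 8.16, 3.49 and 0 CPM at 4 h, 0.147, 4.55 and 1.71 at 8 h, 1.17, 1.06 and 1.39 at 12 h and 0.275, 1.92 and 0 at 24 h, against 732, 551 and 199 CPM in the controls. The sum left was 0.787%, 0.432%, 0.244% and 0.148%, a decline in the means, while the libraries at 4 h and 24 h overlapped.

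The 4 members of 312 nt had their lowest summed level at 4 h. They summed to 15.3, 7.68 and 2.61 CPM at 4 h, 25.4, 12.2 and 20.3 at 8 h, 14.1, 12.9 and 15.3 at 12 h and 15.1, 18.8 and 14.7 at 24 h, against 224, 248 and 188 CPM in the controls. One of the 4 kept slightly less at 12 h than at 4 h (2.36% and 2.57%). Of the sum, 3.88% was left at 4 h and 8.78%, 6.41% and 7.36% at the later times, a shallower loss than in the sets of 1512 and 414 nt. The 6 members of 1653 nt peaked instead in single libraries, with 15.2 CPM in 4 h replicate 1 and 25.01 CPM in 12 h replicate 2, against at most 11.9 CPM in the other 10 stressed libraries and 499 to 909 CPM in the controls.

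The limit of the rule was crossed gradually. The 3 members nearest to the limit had a highest stressed CPM + 1 of 0.249, 0.249 and 0.247 of the lowest control CPM + 1, and the 3 genes just outside had 0.251, 0.252 and 0.252. With an 8-fold limit 75 genes passed and with a 2-fold limit 977. A further 25 genes passed the 4-fold limit with at most 5 counts in the stressed libraries, 7 of them with none, and had control means of 4.90 to 54.8 CPM; they are not members. In the mirrored direction, 23 genes had a lowest stressed CPM + 1 at least 4-fold above their highest control.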

How the data were processed

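The authors deposited raw read counts per gene and FPKM for 15 libraries of root RNA. Per the labels' protocols, total RNA was purified with an RNeasy kit and sequenced after SMARTer mRNA library preparation. The sources used here do not give the aligner, counting tool, strand setting or genome build. Dividing the deposited count by the deposited FPKM gave a single length across libraries, within 0.01 nt, for each of 108456 genes; since 95.96% are multiples of 3, coding length is the term used. Groups and replicate numbers come from the sample titles (the treatment field reads the same for controls).

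Members were found on CPM with a pseudocount of 1. The test on counts was that of edgeR 4.0.16 under R 4.3.3 (filterByExpr, TMM, glmQLFit and glmQLFTest, two-sided, 5 groups, 15 libraries), adjusted by the Benjamini-Hochberg method over 68605 genes, which include all 266 members, with a threshold of 0.05. The SE of a log2 fold change is its size over the square root of F. Alternatives used DESeq2 1.42.0 and limma 3.58.1 (voom, or log2(FPKM + 1)), other scalings and filters, fewer libraries and a replicate block. Scripts were tested on simulated data. Totals of 6863315 to 15180708 counts set the depth; floors of 3 counts allow for counting error only, because amplified reads are not separate molecules.

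The members, lengths singled out and tests were chosen with earlier results of these data known. The rule for printed IDs took the 2 members with the highest control mean CPM, and the 2 with the largest log2 fold change of 24 h over 4 h among those called higher with at least 1 CPM at 24 h. The fits with other tools on 11 libraries were added after seeing the data.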

Additional observations from a re-analysis of the deposited data

Results flagged for a closer look

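For 2 of the 4 printed genes the effect of stress differed between times by a test of the difference itself, the comparison of 24 h with 4 h in 1 fit, which equals the difference of their effects against the same controls. MS.gene27385 had a log2 fold change of 7.30 ± 1.01 (SE, edgeR adjusted p = 0.00128) and was higher in 3 of 3 libraries at 24 h than in any at 4 h. MS.gene062678 had 7.59 ± 2.22 (edgeR adjusted p = 0.0408) and was higher in 2 of 3 libraries. Both had no count at 4 h, so the fitted values depend on the prior count and are no bounds. Both were picked as the largest rises among the called members. Groups of 3 libraries were not tested for single outlying samples.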

How the results depend on the processing

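Most values kept their size under other settings, while the calls between stress times did not. The number of members was 416 with a pseudocount of 0.1, 977 with a 2-fold limit and 75 with an 8-fold limit. With 1 library left out it was 266 to 522, where leaving out a library can only loosen the fold limit. TMM-scaled CPM gave 257 genes (256 of them members) and FPKM 280 (253 of them members). With a pseudocount of 0.1, 34 members stayed within 2-fold over the 4 times. With 1 library left out, the median level left was 1.47% to 2.92% at 4 h, 1.27% to 1.65% at 8 h, 2.02% to 2.83% at 12 h and 1.61% to 2.43% at 24 h.

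Without 4 h replicate 1, 66 members were lowest at 8 h and 74 at 4 h. Members called for 24 h against 4 h, 8 h against 4 h, 12 h against 8 h, 24 h against 12 h and among the 4 times are given next in this order. With 1 stressed library left out they were 16 to 56, 3 to 39, 0 to 14, 0 to 22 and 37 to 92. Of all genes, 4.60% to 15.3%, 2.16% to 10.6%, 0.0718% to 2.92%, 0.161% to 3.96% and 8.69% to 21.2% were then called. In the main fit the member calls were 18.8%, 11.7%, 1.50%, 4.51% and 27.8% of the members, against 15.4%, 10.5%, 1.82%, 2.80% and 21.9% of all genes. By limma-voom they were 20, 8, 2, 7 and 29 (7.52%, 3.01%, 0.752%, 2.63% and 10.9%, against 13.7%, 9.19%, 2.07%, 3.01% and 19.0%). On log2(FPKM + 1) they were 21, 8, 5, 9 and 36 (7.89%, 3.01%, 1.88%, 3.38% and 13.5%, against 16.3%, 10.8%, 4.69%, 6.28% and 25.1%). On the 12 stressed libraries they were 22, 6, 0, 3 and 18 of the 193 members kept there (11.4%, 3.11%, 0%, 1.55% and 9.33%, against 14.3%, 9.74%, 1.16%, 2.11% and 18.8%). From 8 to 12 h edgeR found an unadjusted p under 0.05 there for 42 members, a share near that of all genes (21.8%, against 19.9%). Without the 4 intermediate libraries edgeR and limma-voom gave 0 of all genes in each, and DESeq2 22, 6, 1, 4 and 29. DESeq2 on 15 libraries gave 68, 64, 37, 38 and 121 (25.6%, 24.1%, 13.9%, 14.3% and 45.5%, against 24.6%, 20.1%, 9.92%, 11.2% and 37.7%). No filter gave 62, 54, 27, 32 and 123 (23.3%, 20.3%, 10.2%, 12.0% and 46.2%, against 10.9%, 8.17%, 2.72%, 3.37% and 19.7%). The cause of these changes was not tested.

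Replicate numbers did not pair the libraries: deviations of same-numbered libraries from their group means correlated at -0.05 to 0.16, over 0.1 in 2 of 30 pairs, and 5 of 15 libraries were closest to their own number. With the replicate block the calls were 37, 14, 0, 6 and 47 (13.9%, 5.26%, 0%, 2.26% and 17.7%, against 10.7%, 6.28%, 0.560%, 1.27% and 13.2%). The log2 fold change of MS.gene067820 between 24 h and 4 h ran from -1.05 to 0.21 with 1 library left out. Depth limits what can be said of members near 0 counts under stress, where a difference between times may not be detectable.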
